A study of Mus musculus with 12 samples.

Results

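Caveolae are flask-shaped pits of the plasma membrane. The 9 genes described here, Cav1, Cav2, Cavin1, Cavin2, Cavin3, Ehd2, Mfsd2a, Plvap, and Emp1, were grouped as genes that form and shape these pits, that bear on vesicular traffic across brain endothelium, or, for Emp1, that encode another membrane protein of the vessel wall. They were chosen by name, not by their values, and were 9 of the 54119 genes measured. All 9 passed the filter on low counts and were tested.

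RNA was sequenced from cerebral vessels isolated from the forebrains of C57BL6 wild type mice, 2 to 3 months old, after a single intraperitoneal injection. Mice received lipopolysaccharide (LPS), the bacterial endotoxin, at 10 mg/kg and were killed after 15 min, 30 min, or 4 h, or received phosphate buffered saline (PBS) as the control. Each of the 4 groups had 3 libraries, and each library pooled the vessels of 1 male and 1 female mouse, so the value of a single mouse is not seen. The hour of injection and the time between PBS injection and death are not given in the sources used here. All LPS groups were compared with the same 3 PBS libraries, so those comparisons are not independent of each other.

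Brain endothelium differs from most other endothelium in that it keeps few caveolae, which limits the transfer of plasma proteins across the blood-brain barrier. Caveolins insert in the inner leaflet of the membrane, cavins form a coat over them, and EHD2 holds the neck of the pit. MFSD2A is a transporter of lysophospholipids that carry docosahexaenoic acid, and it is known to keep caveola-mediated transcytosis low in this endothelium, while PLVAP forms the diaphragms of fenestrae and vesicles in permeable endothelium.

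Vessels carried the RNA of all 12 endothelial markers, and their summed level was 13092 to 13384 counts-per-million (CPM) in PBS. Nonvascular RNA was present too: choroid plexus markers summed to 10565 to 11006 CPM in PBS, most of it Ttr. Several of these sums moved between groups and are given beside the results. Depth was 18309177 to 25882028 fragments per library, and trimmed mean of M values (TMM) factors were lower at LPS 4 h, at 0.715 to 0.718, than in PBS, at 1.16 to 1.17.

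The caveolin genes are neighbours. In the GENCODE M21 annotation of GRCm38, Cav2 lies at chr6:17281185-17289115 and Cav1 at chr6:17306335-17341452, both on the plus strand, with 17219 bases between them. Emp1 lies farther along the same chromosome, at chr6:135362545-135383173. RefSeq promoter tables on GRCm38.p6 held 10 promoters for 7 of the 9 genes. The sequences upstream of Cav1, Cav2, and the leading Emp1 transcript, Emp1-201, are shown because the caveolins fell together after LPS while Emp1 rose more than any other of the 9. Capitals mark matches, on either strand, to the motifs described after them.
Cav1 promoter, chr6:17306085-17306334, plus strand: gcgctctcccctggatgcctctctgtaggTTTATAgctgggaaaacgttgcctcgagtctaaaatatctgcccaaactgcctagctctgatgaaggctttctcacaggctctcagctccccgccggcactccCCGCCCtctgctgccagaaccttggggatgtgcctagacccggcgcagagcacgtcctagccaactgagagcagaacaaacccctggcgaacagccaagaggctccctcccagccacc
Cav2 promoter, chr6:17280935-17281184, plus strand: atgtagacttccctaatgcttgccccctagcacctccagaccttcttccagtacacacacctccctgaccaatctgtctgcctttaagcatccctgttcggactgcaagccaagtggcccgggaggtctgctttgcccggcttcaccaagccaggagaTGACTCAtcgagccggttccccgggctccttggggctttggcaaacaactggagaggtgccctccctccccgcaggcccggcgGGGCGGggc
Emp1 promoter, chr6:135362708-135362903, plus strand: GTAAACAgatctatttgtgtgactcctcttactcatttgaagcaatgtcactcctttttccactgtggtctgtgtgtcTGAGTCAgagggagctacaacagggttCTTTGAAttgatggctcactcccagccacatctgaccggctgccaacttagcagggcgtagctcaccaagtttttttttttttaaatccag
The Cav1 and Cav2 runs end at the base before the start site. The Emp1 run covers 223 to 28 bases before the start of Emp1-201 at base 135362931. It lies inside the gene's span, in an intron of Emp1-206, which starts farther upstream, and the rest of the window was left out because an annotated exon overlaps it. TGANTCA, the core bound by AP-1 factors, matched upstream of Cav2 at 92 bases before the start and of Emp1 at 145 bases and, outside the printed run, at 25 bases, and it is present in 6.75% of the 32841 mouse promoters searched. In the same set CTTTGAA was in 4.45% of promoters and GTAAACA in 3.17%, and both matched upstream of Emp1. TATAAA, in 12.4% of promoters, matched upstream of Cav1, and GGGCGG, in 32.7%, matched upstream of Cav1, Cav2, Cavin1, and Ehd2. The motif CTTTGAT (3.21% of promoters), the NF-κB consensus (3.90%), and the CArG box (1.47%) had no match in these 10 windows. A match is a run of letters and not evidence of binding.

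In the resting vessels Cavin1 was the most abundant of the 9 per transcript length. Its level in PBS was 488 ± 11.2 transcripts-per-million (TPM, mean ± SD, n = 3), followed by Cav1 at 259 ± 9.87 TPM. Cavin2, Cavin3, Cav2, and Ehd2 followed at 132 to 120.0 TPM, and each of them overlapped its next neighbour in this order. Mfsd2a at 92.4 ± 2.14 TPM, Emp1 at 46.3 ± 3.07 TPM, and Plvap at 24.1 ± 1.78 TPM came below them, without overlap. After 4 h of LPS the order had changed: Emp1 was at the top at 263 ± 3.40 TPM and Cavin3 second at 232 ± 11.6 TPM, ahead of Cavin1 at 115 ± 4.89 TPM. Mfsd2a, Cavin2, Cav2, and Plvap then lay at 12.7 to 11.1 TPM and overlapped their neighbours.

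A gene was called changed if the edgeR test placed its change beyond 1.5-fold (0.58 on the log2 scale) with an adjusted p below 0.05. At LPS 15 min 1 of the 9 genes was called, Mfsd2a, which was higher, where 4.25% of all 19150 genes tested were called and 3.35% were called higher. At LPS 30 min 2 were called, Mfsd2a and Emp1, both higher, where 4.62% of genes were called and 3.8% were called higher. At LPS 4 h 8 were called, 6 lower and 2 higher, where 33% of genes were called, 13.9% lower and 19.1% higher. Cav1, Cav2, Cavin1, Cavin2, Ehd2, and Mfsd2a were the 6 that fell, Cavin3 and Emp1 rose, and Plvap was not called. The median log2 fold change of the 9 at LPS 4 h was −1.17, against −0.01 for all genes tested. With no fold limit 6, 7, and 9 of the 9 passed at the 3 times in order, beside 38.6, 36.9, and 68.5% of all genes. The LPS and PBS libraries did not overlap for 7, 7, and 9 of the 9, beside 49.3, 46.7, and 70.9% of all genes. In bulk vessels fewer cells of a type and less RNA per cell cannot be told apart.

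**Figure D1:**
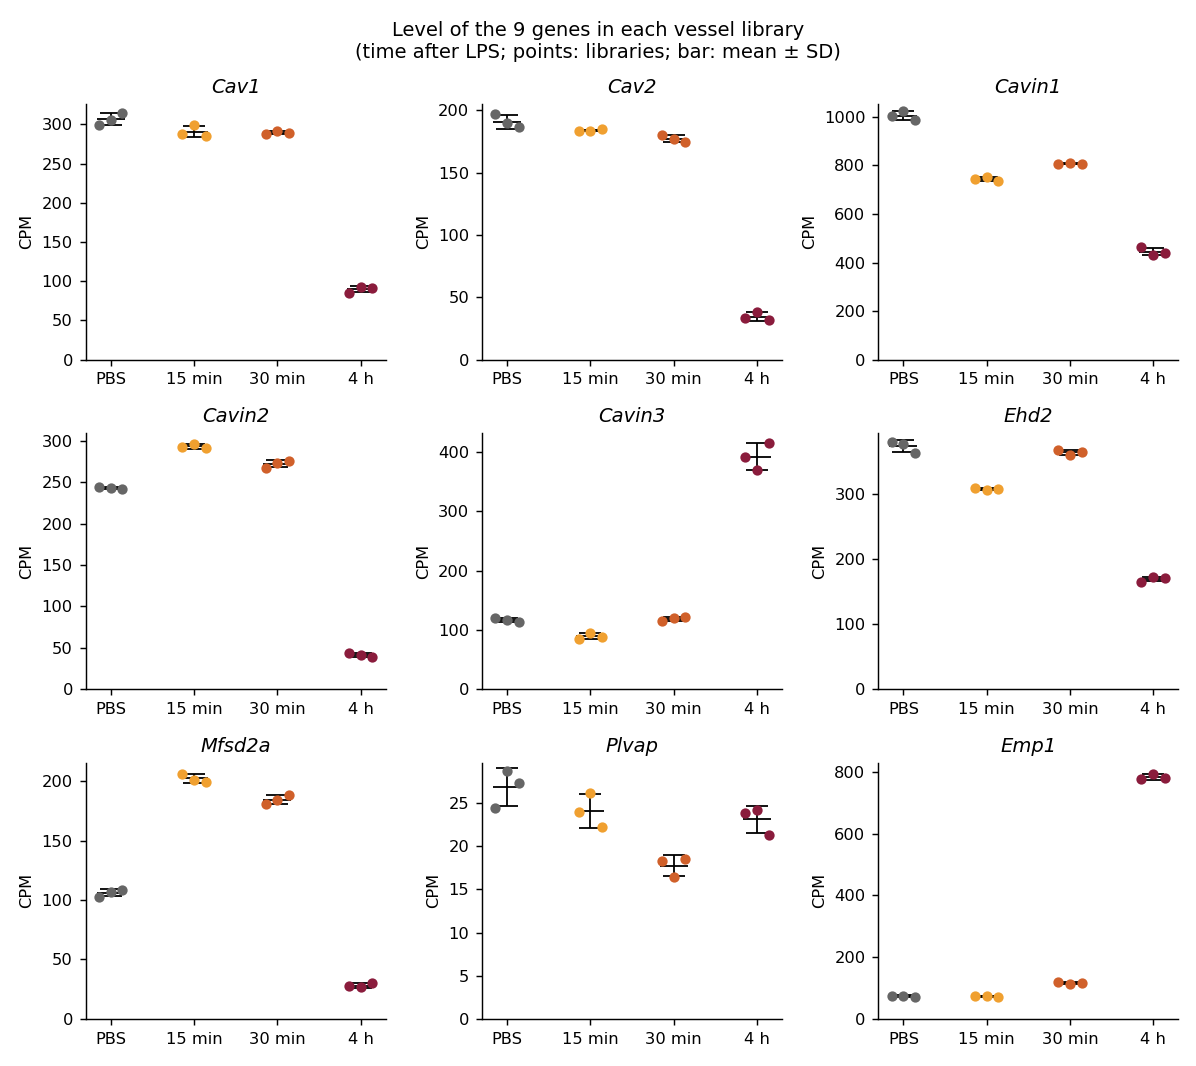
CPM (vertical axes, from 0) of each of the 9 genes in each library, by group (horizontal axes, from PBS to LPS 4 h), with bars for the mean ± SD. Cavin3 and Emp1 stood above PBS at LPS 4 h, 6 genes stood below it, and Plvap was lowest at LPS 30 min.

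The caveolin genes fell together, and late. CAV1 is the main structural protein of caveolae. Cav1 was at 299.6, 306, and 315 CPM in PBS, at 287, 299, and 285 CPM at LPS 15 min, at 288, 291, and 288 CPM at LPS 30 min, and at 85.5, 92.4, and 91.1 CPM at LPS 4 h. The libraries of the first 30 min lay slightly under those of PBS, and those of LPS 4 h lay far below every other library. Cav1 was 3.42-fold lower at LPS 4 h than in PBS (log2 fold change −1.77, SE 0.03, adjusted p = 1.96e-20), and at LPS 15 min and 30 min it differed by −0.08 and −0.09 on the log2 scale, which were not called.

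CAV2 forms hetero-oligomers with CAV1. Cav2 was at 197, 189.6, and 186 CPM in PBS, 184, 183, and 185 CPM at LPS 15 min, 180.1, 177, and 175 CPM at LPS 30 min, and 33.7, 38.3, and 31.8 CPM at LPS 4 h. Again only the LPS 4 h libraries were far from the others. Cav2 fell by 2.46 on the log2 scale (SE 0.05, 5.51-fold, adjusted p = 2.72e-21), and only 1.60% of all genes tested had a lower log2 fold change in that comparison. Cav2 lost more than Cav1 within the same libraries, a comparison that does not depend on scaling between libraries: its share of caveolin TPM was 32.4, 32.4, and 31.7% in the PBS libraries and 20.9, 19.8, and 21.9% in those of LPS 4 h, with no overlap. The summed TPM of both caveolins was 382 ± 16.3 in PBS, 346 ± 30.9 and 284 ± 8.72 at the early times, and 56.7 ± 8.36 after 4 h of LPS. The summed CPM after TMM scaling was also lower at 30 min than in PBS, at 466 ± 2.86 against 498 ± 3.04, a smaller difference than that in TPM.

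Salmon estimates were available per transcript as well. Cav1-201, the transcript with 3 exons that starts at the gene's start, held 72.2 ± 3.04% of Cav1 TPM in PBS and 58.2% (53.3 to 64.9%) at LPS 4 h. The difference of −14.0 percentage points had an exact two-sided permutation p of 0.10, the smallest that 3 against 3 libraries can give, and an adjusted p of 0.90 over 18 tests. By fragments, of which the libraries of LPS 4 h gave Cav1-201 only 812 to 1239, the share was 89.7 ± 1.48% in PBS and 79.2 ± 8.76% at LPS 4 h. In the other 5 genes with several transcripts the leading transcript held a mean of 89.0% of the TPM or more in every group, and no share differed by more than 1.81 points from PBS.

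The 3 cavins did not move alike. CAVIN1 is needed for caveolae to form in all tissues. Cavin1 was at 1003, 1024, and 988 CPM in PBS, 744, 753, and 735 CPM at LPS 15 min, 806, 809, and 804 CPM at LPS 30 min, and 463, 432, and 441 CPM at LPS 4 h. The 4 groups did not overlap at any time. Cavin1 was thus already lower at LPS 15 min (log2 fold change −0.43, SE 0.02) and LPS 30 min (−0.32, SE 0.02), within the 1.5-fold limit and so not called, and it was called 2.26-fold lower at LPS 4 h (−1.17, SE 0.03, adjusted p = 5.45e-17).

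CAVIN2, which shapes endothelial caveolae, rose slightly before it fell. Cavin2 was at 244, 243, and 242 CPM in PBS, 292, 296, and 292 CPM at LPS 15 min, 268, 274, and 276 CPM at LPS 30 min, and 44.3, 41.9, and 39.1 CPM at LPS 4 h. The early libraries lay above all PBS libraries and the late ones below. The early differences of 0.27 and 0.16 were under the limit, and without TMM scaling the latter was −0.0021. The difference of −2.54 at LPS 4 h (SE 0.04, 5.84-fold, adjusted p = 1.13e-23) was the lowest of the 9 genes.

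CAVIN3, which binds PKC delta and associates with caveolae, went the other way. Cavin3 was at 119, 117, and 113 CPM in PBS, 85.2, 95.2, and 88.8 CPM at LPS 15 min, 115, 120.3, and 122 CPM at LPS 30 min, and 392, 369, and 415 CPM at LPS 4 h. It dipped at 15 min, overlapped PBS at 30 min, and stood above all other libraries at 4 h, 3.36-fold over PBS (log2 fold change 1.75, SE 0.04, adjusted p = 2.59e-18). The dip of −0.38 at LPS 15 min was within the limit.

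The composition of the cavin RNA thus differed between PBS and LPS 4 h, with Cavin3 in place of Cavin1 as the most abundant. Cavin1 held 65.1 ± 0.30% of cavin TPM in PBS and 32.1 ± 1.03% at LPS 4 h, and Cavin2 17.6 ± 0.06% and 3.35 ± 0.26%. Cavin3 went from 17.3 ± 0.25% to 64.6 ± 1.29%. At LPS 15 min the share of Cavin2 was 25.5 ± 0.17% and at LPS 30 min 22.1 ± 0.04%, above PBS in 3 of 3 libraries each. Summed cavin TPM was 191 to 199% of caveolin TPM in the PBS libraries and 521 to 747% in those of LPS 4 h.

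**Figure D2:**
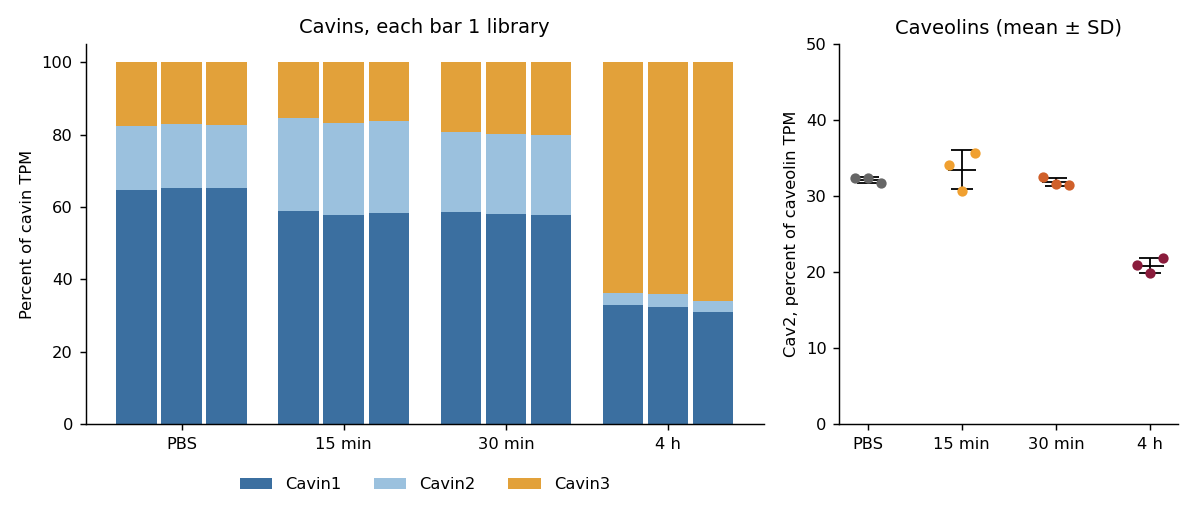
Percent of cavin TPM held by each cavin in each library (stacked bars), and Cav2 as percent of caveolin TPM (points are libraries, bars mean ± SD), by group. At LPS 4 h Cavin3 held 63.6 to 66.0% of cavin TPM and Cav2 19.8 to 21.9% of caveolin TPM.

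EHD2 is the ATPase at the caveola neck. Ehd2 was at 380.2, 377, and 363 CPM in PBS, 310.0, 307, and 307 CPM at LPS 15 min, 368, 360.3, and 365 CPM at LPS 30 min, and 166, 173, and 170.5 CPM at LPS 4 h. The 15 min libraries lay below PBS, the 30 min libraries overlapped it, and the 4 h libraries lay below all others. The difference from PBS was −0.28 (SE 0.02) at LPS 15 min, −0.04 (SE 0.02) at LPS 30 min, and −1.14 (SE 0.03, 2.20-fold lower, adjusted p = 6.18e-16) at LPS 4 h.

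Markers of several other cell types moved with the early dip. Of all genes tested, 4.25% were called in either direction at LPS 15 min and 3.35% were called higher. The summed level of 8 smooth muscle markers was 71.1 ± 0.540% of its PBS mean at LPS 15 min and 95.1 ± 0.446% at LPS 30 min. At 15 min 3 of the 8 were called lower. The summed level of 7 fibroblast markers was 66.9 ± 1.35% at LPS 15 min and 80.4 ± 0.535% at LPS 30 min, with 3 of 7 called lower at 15 min. On the same scale Cavin1 was at 74.0 and 80.2%, Cavin3 at 77.0 and 102%, and Ehd2 at 82.4 and 97.6%. Pericyte markers summed to 106% at 15 min and endothelial markers to 103%, while the median log2 fold change of the 12 endothelial markers was −0.12, with 1 called higher and 1 lower. Astrocyte markers summed to 731 to 755 CPM in PBS, 570 to 614 CPM at 15 min, and 772 to 797 CPM at 30 min. Oligodendrocyte markers summed to 426 to 442, 362 to 377, and 420 to 430 CPM in the same order. Microglia and choroid plexus sums were lower at 15 min too, while neuronal, red blood cell, and gastrointestinal sums were higher. The part of RNA from any of these cell types in the dip was not tested.

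At LPS 4 h the endothelial sum was 70.2 ± 0.27% of PBS and ranged from 9257 to 9325 CPM, while Cav1, Cav2, and Cavin2 stood at 29.2, 18.1, and 17.2% of their PBS means. The endothelial markers did not move as a block: Cdh5 (log2 fold change 1.96), Erg (0.92), and Esam (0.73) rose, and 6 of the 12 fell, among them Tek (−2.58) and Pecam1 (−1.05). Of all genes tested, 19.1% were called higher and 13.9% lower at LPS 4 h. Smooth muscle markers summed to 93.0% and pericyte markers to 91.7% of PBS at that time. Per gene, 3 of 9 pericyte markers were called lower and 0 higher, with a median log2 fold change of −0.40. Of 8 smooth muscle markers 1 was called higher and 1 lower, with a median of −0.19. Red blood cell markers rose from 2317 to 2492 CPM in PBS to 6941 to 7306 CPM, choroid plexus markers reached 17703 to 18593 CPM, and neutrophil markers went from 4.57 to 6.26 CPM, with Ly6g, Mpo, and Elane at 0, to 183 to 195 CPM. Astrocyte markers rose from 731 to 755 CPM to 1395 to 1454 CPM, with 3 of 7 called higher. Fibroblast markers summed to 58.3% of PBS, with 4 of 7 called lower and a median log2 fold change of −0.70. Their part in the changes at LPS 4 h was not tested.

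**Figure D3:**
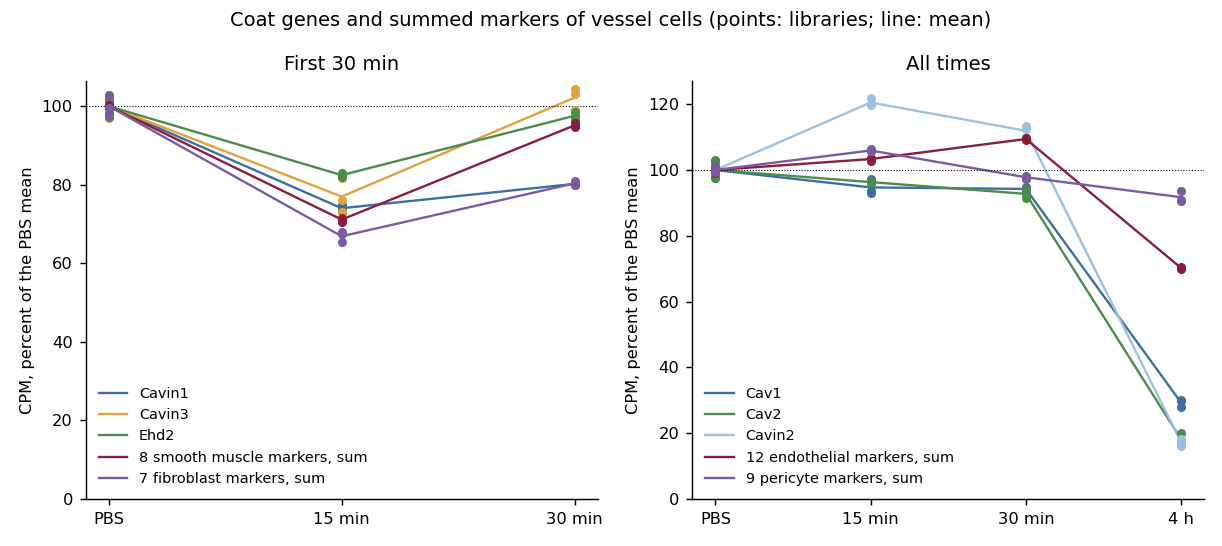
CPM as percent of the PBS mean for coat genes and for summed cell markers, each point 1 library and each line the group mean, for the first 30 min (left) and for all 4 groups (right). Cavin1, Cavin3, and Ehd2 dipped at 15 min as the smooth muscle and fibroblast sums did, and Cav1, Cav2, and Cavin2 at LPS 4 h lay below the endothelial sum.

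Mfsd2a was the only one of the 9 called beyond 1.5-fold at LPS 15 min, and its difference from PBS later turned direction. It was at 103, 107, and 108 CPM in PBS, 206, 201, and 199.6 CPM at LPS 15 min, 181, 184, and 188 CPM at LPS 30 min, and 27.4, 26.6, and 30.1 CPM at LPS 4 h. No groups overlapped. Mfsd2a was 1.91-fold higher at LPS 15 min (log2 fold change 0.93, SE 0.03, adjusted p = 5.49e-09) and 1.74-fold higher at LPS 30 min (0.80, SE 0.03, adjusted p = 6.87e-06), then 3.78-fold lower at LPS 4 h (−1.92, SE 0.05, adjusted p = 1.67e-18). Between LPS 30 min and 4 h it fell by 2.72 on the log2 scale (SE 0.04, adjusted p = 1.59e-22). Markers of gastrointestinal epithelium were also higher at LPS 15 min, with 4 of 8 called, beside 3.35% of all genes. They summed to 29.6 to 37.6 CPM in PBS, where Muc5ac, Gp2, and Reg3g were at 0, and to 56.2 to 64.0 CPM at LPS 15 min. The sum was 40.0 to 44.8 CPM at LPS 30 min and 61.1 to 64.5 CPM at LPS 4 h, where 3 of 8 were called higher, beside 19.1% of all genes. Their part in the Mfsd2a values was not tested. Without TMM scaling the call at LPS 30 min was lost (0.63, adjusted p = 0.24), while that at 15 min was kept.

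The genes whose pattern over the 12 libraries was most like that of Mfsd2a, out of 10893 with a mean of at least 10 CPM, were Dbp (Pearson r = 0.998), Hlf (r = 0.998), and Tmeff1 (r = 0.998). The 12 libraries share 4 groups, so these values describe group means for the most part. DBP and HLF are PAR bZIP transcription factors with daily rhythms of expression. Dbp went from 124 to 129 CPM in PBS to 269 to 279 CPM at LPS 15 min, 233 to 245 CPM at LPS 30 min, and 20.6 to 21.8 CPM at LPS 4 h. Of 14 clock genes, a list chosen after that pattern was seen, 9 were called higher and 1 lower at LPS 15 min, 7 higher and 1 lower at LPS 30 min, and 3 higher and 5 lower at LPS 4 h. Of all genes 3.35 and 3.8% were called higher at the early times, and 19.1% higher and 13.9% lower at 4 h. Among them Per1 and Per2, which oppose the clock's activators, were higher by 1.42 and 2.54 at LPS 15 min, and Arntl, an activator of the clock, was lower by 1.63. Since the time of day is not given, the groups' hour of death and LPS cannot be told apart for Mfsd2a, nor for the other genes described here.

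**Figure D4:**
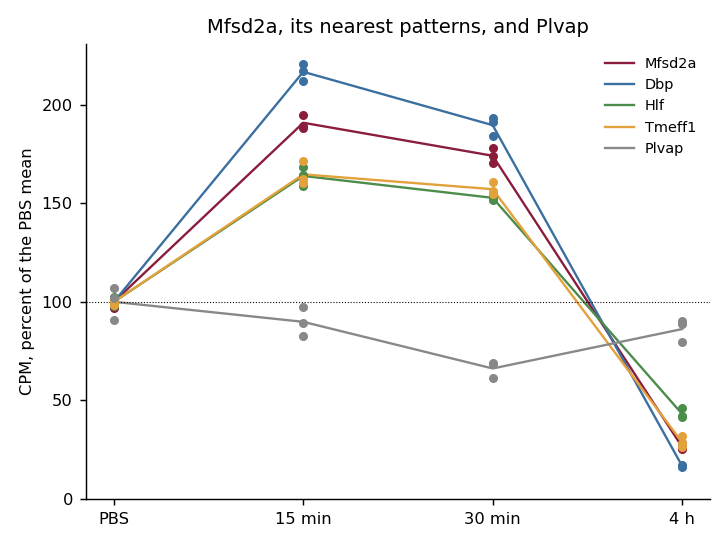
CPM as percent of the PBS mean (vertical axis) for Mfsd2a, the 3 genes with the most similar pattern, and Plvap, by group, each point 1 library and each line the group mean. Mfsd2a, Dbp, Hlf, and Tmeff1 stood above PBS at 15 and 30 min and below it at 4 h, and Plvap was lowest at 30 min.

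Plvap, a gene that brain endothelium largely silences during development except in fenestrated vessels, was not called at any time. It was at 24.4, 28.7, and 27.4 CPM in PBS, 23.97, 26.1, and 22.2 CPM at LPS 15 min, 18.3, 16.4, and 18.5 CPM at LPS 30 min, and 23.8, 24.2, and 21.3 CPM at LPS 4 h. The libraries of LPS 30 min lay below all others, those of LPS 15 min overlapped PBS, and those of LPS 4 h lay just below PBS. The log2 differences from PBS were −0.16 (SE 0.08), −0.60 (SE 0.08), and −0.22 (SE 0.08), and none was called. Plvap at LPS 4 h depended on the scaling: with library size only, where the median of all genes was shifted by −0.70, it was −0.92 with an adjusted p of 1.07e-04. Relative to that shift the difference was again close to that after TMM scaling. Choroid plexus, a tissue with fenestrated vessels, was followed by markers that were mostly Ttr and not by markers of its vessels. They summed to 10565 to 11006 CPM in PBS and 9409 to 9912 CPM at LPS 15 min. At LPS 30 min they summed to 13919 to 14257 CPM and at LPS 4 h to 17703 to 18593 CPM. The part of choroid plexus RNA in the Plvap values was not tested. The share of Mfsd2a in the summed TPM of Mfsd2a and Plvap was 79.3 ± 0.84% in PBS, 89.2 ± 0.87% at 15 min and 91.2 ± 0.55% at 30 min of LPS, and 53.5 ± 3.12% by 4 h.

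Emp1 rose most. It encodes epithelial membrane protein 1, a tetraspan protein of the PMP22 family. Emp1 was at 75.6, 75.5, and 69.7 CPM in PBS, 73.5, 74.5, and 71.1 CPM at LPS 15 min, 119, 115, and 116 CPM at LPS 30 min, and 779, 794, and 779.7 CPM at LPS 4 h. PBS and LPS 15 min overlapped, and the later groups lay above them in turn. At LPS 4 h Emp1 was 10.7-fold over PBS (log2 fold change 3.41, SE 0.03, adjusted p = 1.08e-27), and it held 36.0 ± 0.42% of the summed TPM of the 9 genes against 3.27 ± 0.14% in PBS. At LPS 30 min it was 1.59-fold higher (0.67, SE 0.03, adjusted p = 0.039). That call sat at the limit: DESeq2 with the same limit gave an adjusted p of 0.77, and without PBS replicate 3, LPS 30 min replicate 1, or LPS 30 min replicate 3 it was 0.32, 0.17, and 0.064. At LPS 30 min markers of skeletal muscle summed to 170.1 to 184 CPM against 12.4 to 16.9 CPM in PBS. At that time 2 of 7 astrocyte markers were called higher, beside 3.8% of all genes. The part of these cell types in this value of Emp1 was not tested. Of its 3 relatives, Emp2 fell at LPS 4 h (−0.82) and Emp3 and Pmp22 were not called, and the median of the 3 was −0.44.

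**Figure D5:**
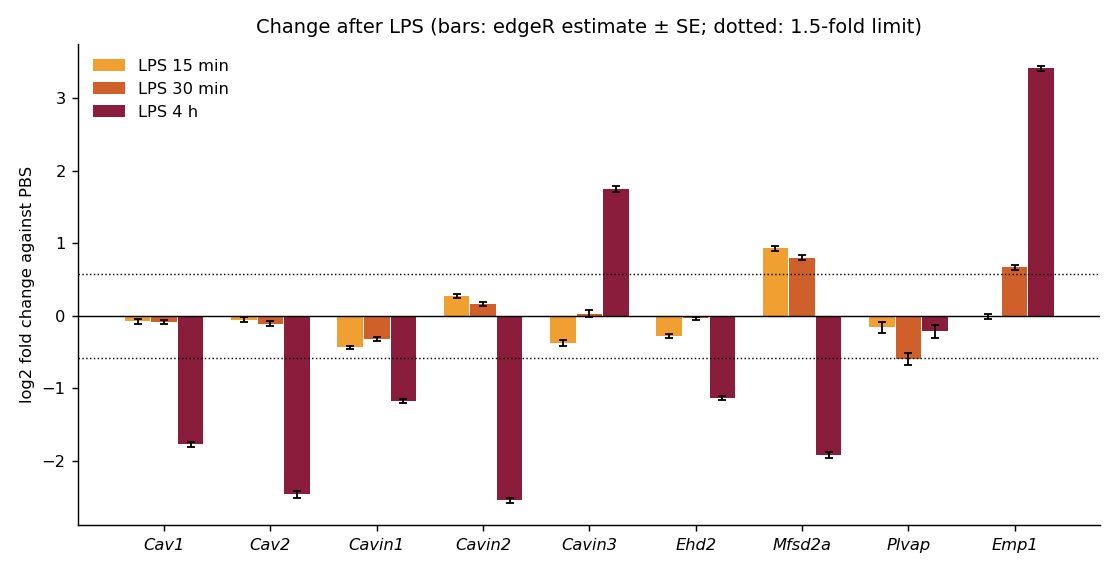
Log2 fold change against PBS (vertical axis; bars are edgeR estimates, error bars SE) of each gene at LPS 15 min, LPS 30 min, and LPS 4 h, with dotted lines at the 1.5-fold limit. Mfsd2a at 15 and 30 min and Emp1 at 30 min were the early bars beyond the limit that were called.

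The LPS times were also compared with each other. Between LPS 15 min and 30 min, Emp1 was the only one of the 9 called (0.68, SE 0.03, adjusted p = 0.018), where 4.76% of genes were called and 2.77% were called higher. With no fold limit 7 of the 9 passed (37.4% of all genes), and 8 did not overlap (47.6%). Between LPS 30 min and 4 h, 8 were called, 6 lower and 2 higher, where 28.9% were called, 11.9% lower and 17% higher, and they were the genes called between PBS and LPS 4 h. Cavin2 (−2.71) and Mfsd2a (−2.72) had the lowest values there, and Emp1 (2.75) and Cavin3 (1.72) were higher. Plvap differed by 0.38, which was not called, though all 9 passed with no fold limit (65.3% of all genes) and none overlapped (67.5%).

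The nearest patterns of the other genes came from genes of varied roles. For Cav1 they were Apbb1, Palm, and Notum, each with r = 0.999, and for Cav2 they were Eogt, Btbd6, and Map4k2, each with r = 0.998. Notum, a Wnt-regulated inhibitor of Wnt signalling, went from a mean of 78.8 CPM in PBS to 1.57 CPM at LPS 4 h. For Cavin1 they were Ctsa, Cpt1a, and Prss23 (r = 0.996 to 0.997), and for Cavin2 Arhgap27, Adgre5, and Jcad (r = 0.998 to 0.999). Ehd2 was most like Slc22a6, Ctsh, and Eln (r = 0.997 to 0.999). Eln, the elastin of arterial walls, had means of 897 CPM in PBS, 432 CPM at LPS 15 min, 686 CPM at LPS 30 min, and 55.1 CPM at LPS 4 h. Cavin3 was most like Plek, 9530068E07Rik, and Slc7a2 (r = 0.998 each), and Plek, a gene of platelets and leukocytes, had means of 11.2 CPM in PBS and 143 CPM at LPS 4 h. Emp1 was most like Clic4, Btg1, and Pnp (r = 0.999 each), and Plvap, with Tmem19, Setd5, and Zfp414 (r = 0.924 to 0.957), had no gene as close.

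Other lists of genes are read against all genes, of which 19.1% were called higher and 13.9% lower at LPS 4 h. Of 15 other genes of the caveola coat and neck, 2 were called higher and 3 lower at LPS 4 h, with a median of −0.06, and the share called, 33%, was that of all genes. The neck ATPases Ehd4 (1.80) and Ehd1 (1.15) rose while Ehd2 fell. Dynamins, which sever the neck, were lower for Dnm3 (−0.98) and Dnm2 (−0.87), and Cavin4, the muscle cavin, went from 0.94 to 0.24 CPM (−1.97, adjusted p = 0.026). At LPS 15 min Pacsin1, a membrane-bending protein of neurons, was called higher (0.86), beside neuronal markers that summed to 509.8 to 520 CPM against 336 to 349 CPM in PBS, and their part in it was not tested. No gene of this list was called at LPS 30 min.

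Of 5 proteins known to reside in caveolae, 1 rose and 2 fell at LPS 4 h, with a median of −0.35. Nos3, the endothelial nitric oxide synthase held inactive by CAV1, fell by 1.13 on the log2 scale (SE 0.03), and Scarb1, the HDL receptor, also fell by 1.13 (SE 0.05). Trpv4, a calcium channel, rose (1.25, SE 0.03). Nostrin, which traffics the synthase, was higher at LPS 15 min (1.05, SE 0.05) and LPS 30 min (0.94, SE 0.05) and not called at LPS 4 h (−0.16).

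The clathrin route, the other main path of uptake, had 3 genes higher and 1 lower of 18 at LPS 4 h, below the shares of all genes (19.1 and 13.9%), with a median of −0.16. The adaptor Dab2 (1.73), the assembly protein Picalm (1.17), and the light chain Cltb (0.74) rose, and the adaptor subunit Ap2a2 fell (−0.79). Fcho1, a nucleator of clathrin pits, was called at LPS 15 min only (0.87). Of 12 transcytosis receptors 5 fell and 1 rose at LPS 4 h, beside 13.9 and 19.1% of all genes, with a median of −0.19: Fcgrt, the neonatal Fc receptor that carries IgG and albumin (−2.56, SE 0.03), Tfrc, the transferrin receptor (−2.13, SE 0.04), Lrp8 (−1.56), Acvrl1, which binds LDL in endothelium (−1.34), and Igf1r (−1.03) were lower, and Insr, the insulin receptor, was higher (0.83). None of the 12 was called at LPS 15 or 30 min. Of 14 genes of vesicle fusion and endosomes 3 rose and 1 fell at LPS 4 h, close to the shares of all genes or below them, with a median of 0.14. Rab5c (1.39) and Rab5a (1.06) act on early endosomes and Rab11a (0.68) on recycling ones, and Rab4a, also of recycling, was lower (−1.07). Mfsd2b, the relative of Mfsd2a that exports sphingosine 1-phosphate from blood cells, rose from 3.95 to 9.10 CPM (1.21) at LPS 4 h. Red blood cell markers were also higher at LPS 4 h. They were already higher at LPS 15 min (3477 to 3618 CPM) and 30 min (4437 to 4663 CPM) than in PBS (2317 to 2492 CPM). Mfsd2b was not called at those 2 times (0.08 and −0.16), and the part of red blood cells in its level was not tested.

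Wnt signalling through beta-catenin maintains the barrier programme of brain endothelium, and Mfsd2a and Plvap are known to respond to it, in opposite directions. All 13 of its listed targets fell at LPS 4 h, with a median of −1.77, beside 13.9% of all genes called lower there. Notum (−5.62), Sox17 (−3.52), Tnfrsf19 (−2.61), and Nkd1 (−2.44) had the lowest values. At LPS 15 min Slc2a1, the glucose transporter GLUT1, was higher (0.70), and Tnfrsf19 (−0.70) and the tight junction gene Cldn5 (−0.73) were lower. These were the calls among the 13 at that time, where 4.25% of all genes were called and 3.35% were called higher. At LPS 30 min Slc2a1 was higher (1.01) and Cldn5 lower (−0.90), where 4.62% of all genes were called. Slc2a1 and Cldn5 were also among the 12 endothelial markers, whose sum was 70.2% of PBS at LPS 4 h. Mfsd2a was higher at 15 and 30 min (0.93 and 0.80) and lower at LPS 4 h (−1.92). Plvap was not called at LPS 4 h (−0.22). The part of Wnt signalling in these values was not tested.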

How the data were processed

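The authors sequenced SMART-Seq v4 and Nextera XT libraries of isolated cerebral vessels as paired ends, ran Salmon 1.2.1, and imported the estimates with tximport for DESeq2 on GRCm38.p6, per the labels and the methods. The kit does not mark strand. The deposited transcript files hold estimated counts of fragments per transcript with no normalization. The TPM values in them were scaled by the authors for length and to a constant sum. The deposited gene table holds a normalized signal from DESeq2 and served only for limma alternatives. It is not the summed fragments divided by 1 factor per library, since its ratio to them differed between genes. In PBS replicate 1 Cav1 had 7999 fragments and a signal of 7056, and Cavin1 26775 and 22486. In PBS replicate 3 these were 8247 and 6647, and 25888 and 22031. The limma alternatives thus differ from the main fit in their scaling per gene as well.

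Transcripts were joined to GENCODE M21 (139852 of 140948; the rest held 0.482 to 0.850% of fragments), summed to genes, and rounded. All 12 libraries entered 1 edgeR 4.0.16 quasi-likelihood fit under R 4.3.3 with TMM factors and filterByExpr (minimum count 10), which kept 19150 genes. glmTreat tested each against a change of at most 1.5-fold (0.58 log2), two-sided, with Benjamini-Hochberg adjustment over all 19150. CPM were computed from TMM-scaled library sizes. SE is the log2 fold change divided by the root of its quasi-likelihood F. The test was tested on simulated data. The alternatives were DESeq2 1.42.0, limma 3.58.1 (pseudocounts 1 and 10), other scaling, filter, limit, length offset, sample sets, a replicate block, and leaving out each library.

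Groups came from the labels, and p-values measure the spread between pools. The rule named the 9 genes, pathway genes called at 15 or 30 min or, up to 4 a list, with the largest change at 4 h, and the 3 nearest patterns of each gene. Further called genes of a list, marker genes, and clock genes were named after their values were seen. Genes and lists were chosen with earlier results of these data known.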

Additional observations from a re-analysis of the deposited data

Results flagged for a closer look

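The change from PBS differed between LPS times, by the edgeR test of one time against another, for the following genes. Between LPS 15 min and 30 min Emp1 differed by 0.68 on the log2 scale. Between LPS 30 min and 4 h the differences were −1.69 for Cav1, −2.35 for Cav2, −0.86 for Cavin1, −2.71 for Cavin2, 1.72 for Cavin3, −1.10 for Ehd2, −2.72 for Mfsd2a, and 2.75 for Emp1. Adjusted p was 0.018 for the first and at most 1.56e-10 for the others. For Mfsd2a the direction against PBS was opposite at the 2 times, in every library.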

How the results depend on the processing

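At LPS 4 h the 8 called genes kept their direction and call under every alternative run, except Cavin1 and Ehd2 when a log2 fold change over 1.5 was also required; Plvap was added without a fold limit (−0.22) and with library size only (−0.92). With no fold limit 6 of the 9 passed at LPS 15 min, 7 at LPS 30 min, and 7 between these times, where 38.6, 36.9, and 37.4% of all genes did. The added limit of 1.5 left 0 in each of those 3. At LPS 30 min against PBS the count was 1 with DESeq2, RLE factors, no filter, length offset, only the groups compared, and limma with either pseudocount, and 0 with library size only; leaving out libraries gave 1 to 2. Between 15 and 30 min it was 0 with DESeq2, library size only, length offset, and limma with either pseudocount, and 0 to 1 when libraries were left out, Emp1 being lost without LPS 15 min replicate 3 (adjusted p = 0.11) or LPS 30 min replicate 1 (0.091). Where these counts were 0, the count at an unadjusted p under 0.05 was 1, except 2 at LPS 30 min against PBS and 0 between 15 and 30 min with library size only. The added limit did not change the unadjusted p, so for that setting these are the counts of the main fit and take no account of the limit.

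Small differences that were not called changed sign. With library size only these were Cavin2 (−0.0021) and Cavin3 (−0.13) at LPS 30 min, Cavin1 between 15 and 30 min (−0.0246), and Plvap between 30 min and 4 h (−0.16). Limma gave −0.0009 for Cavin3 at LPS 30 min with both pseudocounts. For Cav1 between 15 and 30 min, DESeq2 gave 2e-04, length offset 0.041, limma 0.051 with both pseudocounts, and leaving out libraries −0.019 to 0.013. For Emp1 at LPS 15 min, leaving out libraries gave −0.050 to 0.0072. The cause was not tested.

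Library numbers are shared between groups but the 18 correlations of same-numbered libraries' deviations ran from −0.084 to 0.077, and a library correlated best with its own number in 14 of 36 cases, so the numbers were not taken as a pairing. The replicate block gave 1, 2, and 8 genes called against PBS at the 3 times in order, and 1 and 8 between times, as without it, and changed no call. Depth limits Plvap most, with 309 to 851 fragments a library.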
